A study of Drosophila melanogaster with 6 samples.

Results

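The genes described here are 32 genes of autophagy and of the lysosome, chosen by name for their roles, and all 32 were found among the 17895 genes of the count table, which has 24278 entries with transposable elements included. The protease Cp1 was found under its current symbol, CtsL1. RNA was sequenced from whole larval intestines of Drosophila melanogaster, with 3 libraries of a control genotype and 3 libraries of a genotype called EcRi. All larvae carried Tub-LexA with a LexO hairpin against spok, a gene needed to make the steroid hormone ecdysone, and also Tub-GAL80ts and a UAS hairpin against EcR, the ecdysone receptor. EcRi larvae additionally carried Myo1A-GAL4, which drives expression in enterocytes, the absorptive cells of the gut. By the crosses in the methods the control had the EcR hairpin without a driver, whereas the titles of the control samples name myo1a, and this difference was not settled. The larvae were kept for 6 days at 18 °C and then for 4 days at 29 °C, where GAL80ts no longer blocks the GAL4 and LexA drivers. The comparison asks which intestinal genes differ when EcR, which represses its targets where the hormone is missing, is knocked down in enterocytes.

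In autophagy, a cell encloses part of its cytoplasm in a double membrane, the autophagosome, which fuses with lysosomes so that its content is digested. The Atg1 kinase complex starts the process, a class III PI3-kinase marks the membrane with a lipid, and Atg9, Atg2 and the Atg18 proteins bring lipids to it. Ubiquitin-like conjugation systems then attach Atg8 to the membrane, SNARE proteins and Rab7 mediate fusion, and lysosomal proteases such as cathepsins degrade the cargo. In Drosophila, the larval midgut is removed by autophagy at metamorphosis, when the ecdysone titre is high.

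The libraries held between 200890663 and 246255664 counts. Counts are given here as CPM (counts per 1000000 counts of a library) after TMM scaling, with factors between 0.713 and 0.845 in the control and between 1.21 and 1.30 in EcRi. EcR itself had 45.6, 28.3 and 26.6 CPM in the 3 control libraries against 28.8, 28.7 and 32.0 CPM in EcRi, which overlapped (log2 fold change -0.17, standard error 0.21, adjusted p = 0.517 from edgeR), and its log2 fold change was 0.10 without control replicate 1. The counts of the whole intestine therefore do not show the knockdown, and EcRi is used as the name on the labels. Marker genes of other tissues moved with the genotype. All 6 muscle markers were lower in EcRi, and their sum ranged from 2354 to 2842 CPM in the control libraries and from 709.6 to 875 CPM in EcRi. Of 6 tracheal markers 5 were higher, and the sum of the 6 ranged from 107 to 155 CPM in the control libraries and from 703 to 783 CPM in EcRi. Most of the sum in EcRi came from verm (266 to 289 CPM) and serp (329 to 391 CPM), and btl did not pass the test (adjusted p = 0.409 from edgeR). Of 4 enterocyte markers, nub was higher and mex1 and Myo61F were lower. Myo31DF did not pass the test, with 660 to 720 CPM in the control libraries and 642 to 692 CPM in EcRi (adjusted p = 0.655 from edgeR). The sum of the 4 ranged from 2793 to 3052 CPM in the control libraries and from 1665 to 1894 CPM in EcRi. Most of the fall of this sum was Myo61F, with 1745 to 1963 CPM in the control libraries and 673 to 916 CPM in EcRi. The 8 fat body markers varied within a genotype, with a sum from 121 to 903 CPM in the control libraries and from 259 to 1188 CPM in EcRi, and 1 was higher and 1 lower. None of the 6 haemocyte markers passed the test, with a sum from 28.2 to 46.0 CPM in the control libraries and from 26.5 to 50.8 CPM in EcRi, and none of the 6 salivary gland genes reached 1 CPM, with Sgs3 and Sgs5 at 0 in all control libraries and Sgs5 higher in EcRi. Of 4 Malpighian tubule markers 1 was higher and 2 were lower, with a sum from 527 to 694 CPM in the control libraries and from 1245 to 1468 CPM in EcRi. Nearly all of this sum was Uro, the higher marker, with 486 to 648 CPM in the control libraries and 1230 to 1454 CPM in EcRi. The lower markers were Irk3 and CapaR, with log2 fold changes of -2.42 and -1.04. Of 3 progenitor markers 2 were higher, with a sum from 16.7 to 21.0 CPM in the control libraries and from 24.6 to 31.8 CPM in EcRi, and of 5 enteroendocrine markers 1 was lower, with a sum from 75.0 to 89.9 CPM in the control libraries and from 72.8 to 83.4 CPM in EcRi. The part of these tissues in the values below was not tested, and in RNA from a whole organ a change in cell number cannot be told apart from a change in RNA per cell.

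Of the 32 autophagy and lysosome genes, 23 were higher and 2 were lower in EcRi, and 7 did not pass an adjusted p of 0.05 (edgeR's quasi-likelihood test with Benjamini-Hochberg adjustment over the 12193 entries that passed its filter on low counts). In all tested entries, 30.1% were higher and 29.3% were lower. The counts given below for the genes of each role stand against these same shares. The 2 lower genes were Mitf, a transcription factor of lysosomal genes, and Atg10, an enzyme of conjugation. The median log2 fold change of the 32 genes was 0.62, against 0.033 for all tested entries. Of the 32 genes, 7 passed the test with a log2 fold change above 1, against 16.7% of all tested entries, and these were Atg18b, Atg1, Cp1, Atg17, Atg101, Rab7 and Atg9. A log2 fold change above 0.89, the 80th percentile of all tested entries, was found for 13 of the 32 genes, or 12 of 31 without Atg8b, against 20% by construction. All libraries of EcRi lay above all control libraries for 25 of the 32 genes (24 of 31 without Atg8b) and below them for 2, against 34.9% and 33.4% of all tested entries. Atg8b is set apart because it passed the filter only through its EcRi libraries, and it was not among the 23 genes called higher. Summed over the 32 genes, the level was 4239.9, 3615 and 3898 CPM in the 3 control libraries against 6728, 7313 and 6169.6 CPM in EcRi, so that the groups did not overlap.

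**Figure D1:**
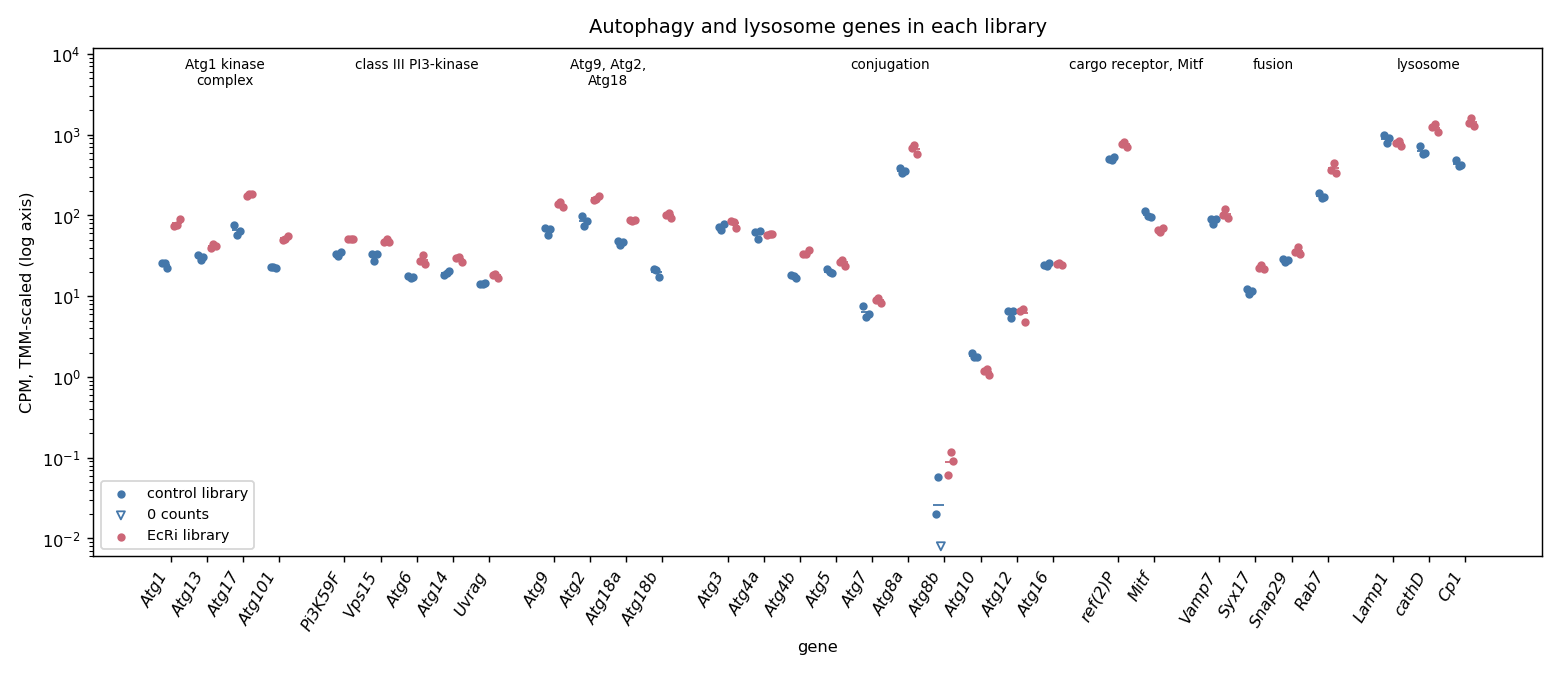
CPM of each gene after TMM scaling (log axis) in every library, with a point for each control (blue) and EcRi (red) library and a short line at the mean of 3 libraries. Red points lie above blue points for all genes of initiation and of Atg9, Atg2 and Atg18, mix with them for Atg3, Atg4a, Atg12, Atg16 and Lamp1, and lie below them for Atg10 and Mitf.

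These directions are relative to the TMM scale. With library totals in place of TMM factors, the median over all tested entries was a log2 fold change of 0.68, and 30 of the 32 genes were higher and 0 lower, where 57.3% of all entries were higher and 12.7% lower. Totals moved the log2 fold changes of the 32 genes up by nearly the same amount. Every gene called higher with TMM therefore had to stay above 0 with totals, which is no separate check. Mitf and Atg10 were then at log2 fold changes of 0.038 and 0.0016. Their fall is therefore a fall relative to the other genes of the intestine.

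**Figure D2:**
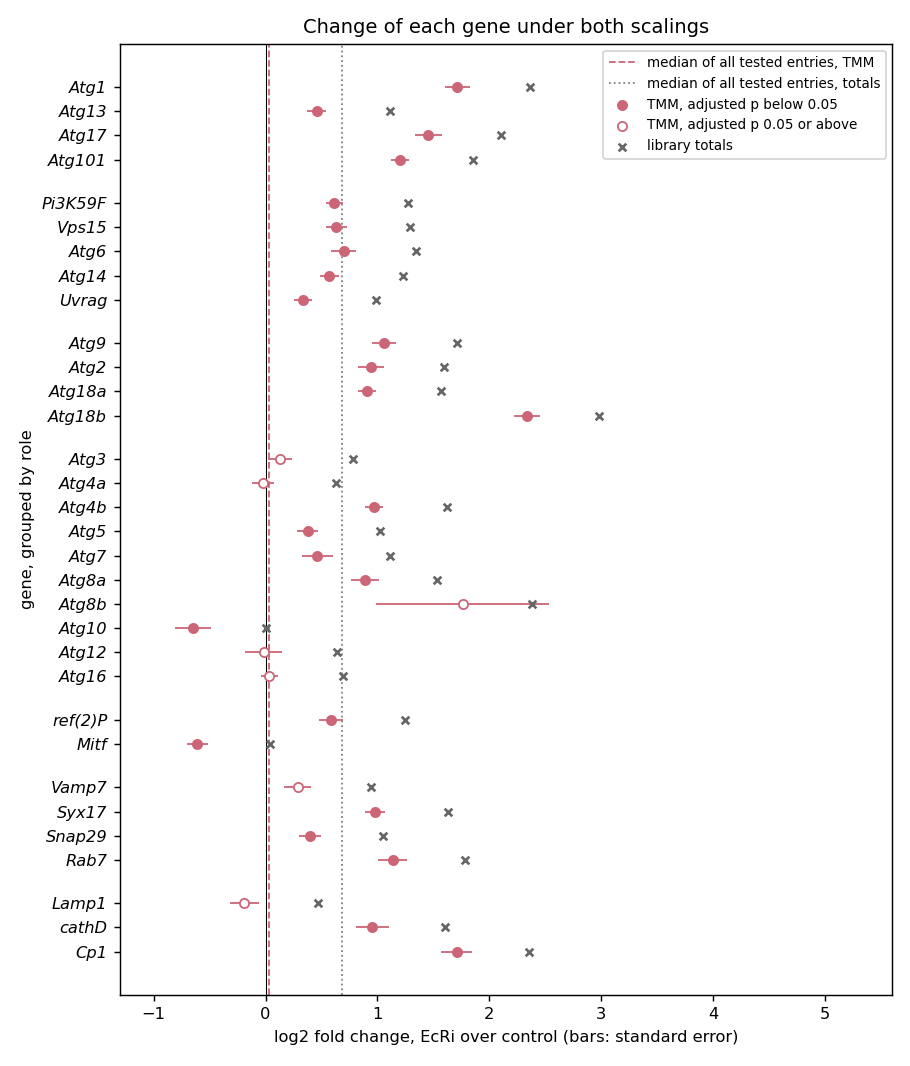
Log2 fold change of each gene, EcRi over control, with TMM scaling (circles, bars for the standard error, filled where the adjusted p was below 0.05) and with library totals (crosses), and the medians of all tested entries as dashed and dotted lines. With TMM 23 filled circles lie right of 0 and those of Mitf and Atg10 left of 0, and with totals both lie near 0.

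All 4 genes of the Atg1 kinase complex rose in EcRi, with a median log2 fold change of 1.33. Atg1 (FBgn0260945, chromosome 3L from 12784429 to 12805116 of BDGP6, the dm6 assembly) encodes the kinase itself. It had 25.9, 25.7 and 22.4 CPM in the 3 control libraries against 73.9, 76.5 and 91.6 CPM in EcRi. Each EcRi library thus lay far above each control library, with means of 24.6 ± 1.97 and 80.7 ± 9.56 CPM (SD, n = 3 each) and a 3.28-fold higher mean in EcRi (log2 fold change 1.71, standard error 0.11, adjusted p = 1.53e-05). Atg17, the fly counterpart of the scaffold protein FIP200, had 76.1, 57.3 and 64.3 CPM in the control against 174, 184 and 184 CPM in EcRi (log2 fold change 1.45, standard error 0.12, adjusted p = 3.81e-05). The EcRi libraries of Atg17 lay close together and the control libraries were more spread. Atg101, a small subunit that stabilizes Atg13, had 22.7, 22.9 and 22.4 CPM in the control against 49.5, 50.8 and 56.2 CPM in EcRi (log2 fold change 1.20, standard error 0.08, adjusted p = 1.59e-05). Atg13, the subunit through which TOR controls the complex, rose least, from 30.5 ± 2.18 to 41.9 ± 2.15 CPM (SD, n = 3 each, log2 fold change 0.46, standard error 0.086, adjusted p = 0.00243). For each of these 4 genes the exact permutation p (two-sided, on log2 CPM) was 0.1, which is the smallest that 3 libraries against 3 allow.

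All 5 genes of the class III PI3-kinase complexes rose as well, within a narrow range of log2 fold changes from 0.33 to 0.70. Pi3K59F, the catalytic subunit known as Vps34, had 33.2, 31.7 and 35.7 CPM in the 3 control libraries against 51.8, 51.3 and 50.8 CPM in EcRi (log2 fold change 0.61, standard error 0.077, adjusted p = 0.000318). Vps15, its regulatory partner, rose by nearly the same amount, from 31.2 ± 3.22 to 48.4 ± 1.97 CPM (SD, n = 3 each, log2 fold change 0.63, standard error 0.096, adjusted p = 0.000852). The same was seen for Atg6, the fly Beclin, at 17.4 ± 0.378 CPM in the control against 28.1 ± 3.78 CPM in EcRi (log2 fold change 0.70, standard error 0.11, adjusted p = 0.000958). Atg14 and Uvrag are alternative subunits that direct the kinase to autophagosomes or to endosomes. Atg14 had 18.5, 19.4 and 20.4 CPM in the control against 29.4, 30.4 and 26.8 CPM in EcRi (log2 fold change 0.57, standard error 0.086, adjusted p = 0.000804). Uvrag had 14.3, 14.3 and 14.7 CPM in the control against 18.5, 19.1 and 17 CPM in EcRi and rose least of the 5 (log2 fold change 0.33, standard error 0.081, adjusted p = 0.00847). Of the exon bases of Uvrag, 23.8% overlap an antisense RNA, asRNA:CR44972, and how such reads were assigned is not given in the sources used here.

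The 4 genes of membrane supply all rose, and this group held the gene with the largest log2 fold change of the 32. Atg18b (FBgn0032935, chromosome 2L from 21212322 to 21220572) encodes a WD-repeat protein of the family that binds the lipid made by Vps34. It had 21.8, 20.9 and 17.3 CPM in the 3 control libraries against 101, 108 and 93.5 CPM in EcRi, so that its mean was 5.05-fold higher (log2 fold change 2.34, standard error 0.12, adjusted p = 5.52e-06). Its paralog Atg18a had 48.6, 43.0 and 47.4 CPM in the control against 87.2, 86.1 and 87.8 CPM in EcRi, a smaller rise (log2 fold change 0.91, standard error 0.081, adjusted p = 5.7e-05). Atg18b thus had the lower CPM in the control and the higher CPM in EcRi. Atg9, the transmembrane protein whose vesicles seed the autophagosome, had 70.8, 57.8 and 68.5 CPM in the control against 138, 147 and 126 CPM in EcRi (log2 fold change 1.06, standard error 0.11, adjusted p = 0.000124). Atg2, the lipid transfer protein that works with Atg18, had 97.7, 74.4 and 85.5 CPM in the control against 156, 162 and 176 CPM in EcRi (log2 fold change 0.94, standard error 0.12, adjusted p = 0.000325). Both groups of Atg2 libraries were spread, but they did not overlap.

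The conjugation genes were divided on the TMM scale. Of 10, 4 were higher, 1 was lower and 5 did not pass the test, where 30.1% of all tested entries were higher and 29.3% lower. With library totals 9 were higher and 0 lower, where 57.3% of all tested entries were higher and 12.7% lower. With TMM their median log2 fold change was 0.25, or 0.13 without Atg8b. Atg8a (FBgn0052672, chromosome X from 10764878 to 10768338), the ubiquitin-like protein that is attached to the autophagosome, rose from 384, 340.3 and 355 CPM in the control libraries to 679, 741 and 576 CPM in EcRi (log2 fold change 0.89, standard error 0.13, adjusted p = 0.000615). Its mean was 1.85-fold higher in EcRi, with a wider spread there than in the control. Its paralog Atg8b was at the limit of detection, with 4, 10 and 0 counts in the control libraries and 15, 36 and 26 counts in EcRi. The change of Atg8b did not pass the test (adjusted p = 0.0834), and 3 counts correspond to between 0.0122 and 0.0149 CPM of a library total, a limit that covers counting error only. Without control replicate 2, the library with 10 counts, Atg8b passed at an adjusted p of 0.0255. With other libraries left out its adjusted p reached 0.207, so that pass is no support for a change. Atg8b also passed with limma-voom (adjusted p = 0.0466) and with library totals (adjusted p = 0.0255 from edgeR), but not with DESeq2 (adjusted p = 0.1). Its call thus depended on the method. Atg4b, one of the proteases that cut and release Atg8, had 18.1, 17.9 and 16.7 CPM in the control against 33.0, 33.3 and 36.9 CPM in EcRi (log2 fold change 0.97, standard error 0.084, adjusted p = 5.02e-05). Its paralog Atg4a had 62.2, 51.8 and 64.5 CPM in the control against 58.1, 58.8 and 58.5 CPM in EcRi and did not pass the test (log2 fold change -0.026, standard error 0.098, adjusted p = 0.842). The Atg4a libraries of EcRi lay inside the range of the control libraries. Of the exon bases of Atg4a, 51.5% overlap CG4629 on the opposite strand, so its counts may hold reads of that gene.

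Among the enzymes of conjugation, Atg7, the E1-like enzyme that activates both Atg8 and Atg12, had 7.67, 5.55 and 6.10 CPM in the 3 control libraries against 8.98, 9.44 and 8.19 CPM in EcRi (log2 fold change 0.46, standard error 0.14, adjusted p = 0.0204). This call is weak, as the adjusted p of Atg7 was between 0.0543 and 0.0587 without control replicate 2, control replicate 3, EcRi replicate 1 or EcRi replicate 2. Atg3, the E2-like enzyme for Atg8, ranged from 67.0 to 78.8 CPM in the control, against 70.3 to 85.6 CPM in EcRi and did not pass the test (adjusted p = 0.338). Atg10, the E2-like enzyme for Atg12, was scarce and went the other way. It had 1.97, 1.75 and 1.75 CPM in the control against 1.2, 1.25 and 1.05 CPM in EcRi, a 1.56-fold higher mean in the control (log2 fold change -0.65, standard error 0.16, adjusted p = 0.0096). Of its exon bases, 46.6% overlap Dgk on the opposite strand. Atg12, Atg5 and Atg16 form the complex that brings Atg8 to the membrane. Atg5 rose from 21.5, 19.8 and 19.4 CPM in the control to 26.8, 28.4 and 23.6 CPM in EcRi (log2 fold change 0.38, standard error 0.096, adjusted p = 0.0106). Atg12 and Atg16 did not pass the test, with log2 fold changes of -0.016 (standard error 0.16) and 0.036 (standard error 0.076) and ranges that overlapped between the genotypes. Of the exon bases of Atg12, 13.7% overlap ND-SGDH on the opposite strand. The 3 genes of the complex thus did not share one call.

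The cargo receptor and the transcription factor of the list moved apart. ref(2)P, the fly p62, links ubiquitinated cargo to Atg8a. Its transcript had 494, 487 and 531 CPM in the 3 control libraries against 762, 804 and 707 CPM in EcRi, a 1.5-fold higher mean (log2 fold change 0.59, standard error 0.11, adjusted p = 0.00218). Mitf (FBgn0263112, chromosome 4 from 1198852 to 1224467) is the fly relative of mammalian TFEB, which activates genes of lysosomes and autophagy. Mitf had 112, 98.5 and 94.8 CPM in the control against 66.9, 63.3 and 70.0 CPM in EcRi, where the highest EcRi library was below the lowest control library, and its mean was 1.53-fold higher in the control (log2 fold change -0.61, standard error 0.095, adjusted p = 0.000986). With library totals this difference was lost (0.038, adjusted p = 0.82).

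Of the 4 fusion genes, 3 were higher, where 30.1% of all tested entries were higher. Rab7, the small GTPase of late endosomes and lysosomes, had 189.7, 163 and 171 CPM in the 3 control libraries against 368, 444 and 340.1 CPM in EcRi (log2 fold change 1.14, standard error 0.13, adjusted p = 0.000188). Syx17, the SNARE on the autophagosome, had 12.4, 10.8 and 11.5 CPM in the control against 22.4, 24.4 and 21.7 CPM in EcRi (log2 fold change 0.98, standard error 0.092, adjusted p = 7.14e-05). The mean was 2.20-fold higher for Rab7 and 1.97-fold higher for Syx17, without overlap of the libraries. Snap29, the SNARE that joins Syx17 and Vamp7, rose less, from 27.6 ± 1.15 to 36.4 ± 3.99 CPM (SD, n = 3 each, log2 fold change 0.40, standard error 0.098, adjusted p = 0.0089). Vamp7, the SNARE on the lysosome, had 89.4, 79.1 and 90.1 CPM in the control against 101, 122 and 93.0 CPM in EcRi. Its groups did not overlap, but the difference did not pass the test (log2 fold change 0.29, standard error 0.12, adjusted p = 0.0711). Vamp7 passed without EcRi replicate 3, its lowest EcRi library, at an adjusted p of 0.0363. With other libraries left out its adjusted p reached 0.217, so that pass is no support for a change.

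Both lysosomal proteases rose, whereas the lysosomal membrane protein did not pass the test. Cp1 (FBgn0013770, chromosome 2R from 13960675 to 13967981) encodes a cathepsin L, a cysteine protease. It had 485, 408 and 416 CPM in the 3 control libraries against 1412, 1592 and 1271 CPM in EcRi, a 3.26-fold higher mean (log2 fold change 1.71, standard error 0.14, adjusted p = 3.8e-05). Of the exon bases of Cp1, 13.7% overlap CG42806 on the same strand. cathD (FBgn0029093, chromosome 2R from 7815339 to 7823569), which encodes the aspartic protease cathepsin D, had 723, 584 and 594 CPM in the control against 1240.5, 1365 and 1079 CPM in EcRi, a 1.94-fold higher mean (log2 fold change 0.95, standard error 0.14, adjusted p = 0.00085). In the control cathD had more counts than Cp1, and in EcRi it had fewer. Lamp1, a glycoprotein of the lysosomal membrane, had 992, 784 and 908 CPM in the control against 801, 827 and 729 CPM in EcRi, with overlapping groups (log2 fold change -0.19, standard error 0.13, adjusted p = 0.246). With library totals Lamp1 was higher in EcRi (0.46, adjusted p = 0.0149).

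To compare the steps of the pathway without library scaling, the mean log2 level per kilobase of exon was taken over the genes of a step in each library, and one step was subtracted from another. The Atg1 kinase complex minus conjugation (without Atg8b) was -0.39, -0.37 and -0.47 in the control libraries and 0.45, 0.48 and 0.75 in EcRi. The mean of the kinase complex genes thus shifted by 0.97 on the log2 scale against that of the conjugation genes. The change from below to above holds only without Atg8b. With Atg8b the conjugation mean was 2.90, 2.85 and 2.66 in the control libraries, already below the kinase complex at 3.32, 3.17 and 3.18. Membrane supply minus conjugation shifted by 1.07, from 0.24, 0.19 and 0.16 in the control to 1.22, 1.23 and 1.36 in EcRi. Fusion minus the proteases shifted by -0.63, and conjugation minus the proteases by -1.09, so that the proteases gained on both steps. The kinase complex minus the proteases overlapped between the genotypes, at -4.94, -4.82 and -4.84 in the control and -5.07, -5.15 and -4.74 in EcRi. The class III PI3-kinase genes shifted by 0.33 against conjugation and fell behind the kinase complex, which gained 0.64 on them. These shifts describe the genes of each step and carry no test, since genes are not replicates.

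Ratios between 2 genes of a library are also free of scaling, and 8 of the 9 planned pairs could be computed, since Atg8b had a count of 0. In 7 of the 8, the libraries of the genotypes did not overlap. Each of the 7 had a two-sided exact permutation p of 0.1, the smallest possible, and 0.114 after Benjamini-Hochberg adjustment over the 8 pairs. For single genes, 34.9% of all tested entries lay higher without overlap and 33.4% lower. The share among other pairs of genes was not computed, so the count of 7 does not set these pairs apart. The Atg18a/Atg18b ratio of counts was 2.23, 2.05 and 2.74 in the control libraries and 0.862, 0.797 and 0.939 in EcRi, a log2 difference of -1.43. The paralog with fewer counts in the control thus had more counts in EcRi. In counts, the same turn was seen for the proteases, where cathD/Cp1 was 1.49, 1.43 and 1.43 in the control and 0.878, 0.858 and 0.849 in EcRi. Per kilobase of exon, cathD and Cp1 were not separable in EcRi, at means of 688 and 689.7 CPM. Atg4a/Atg4b was 3.43, 2.90 and 3.87 in the control and 1.76, 1.77 and 1.59 in EcRi, so Atg4a kept more counts but the gap closed. Atg1/Atg13 went from 0.793, 0.906 and 0.737 in the control to 1.85, 1.73 and 2.21 in EcRi, a turn within one complex. By contrast, Pi3K59F/Vps15 overlapped, with 1.0, 1.15 and 1.08 in the control and 1.09, 1.01 and 1.08 in EcRi (two-sided exact permutation p = 1). The log2 differences of Vamp7/Syx17, Atg5/Atg16 and Atg14/Uvrag were -0.70, 0.34 and 0.24.

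**Figure D3:**
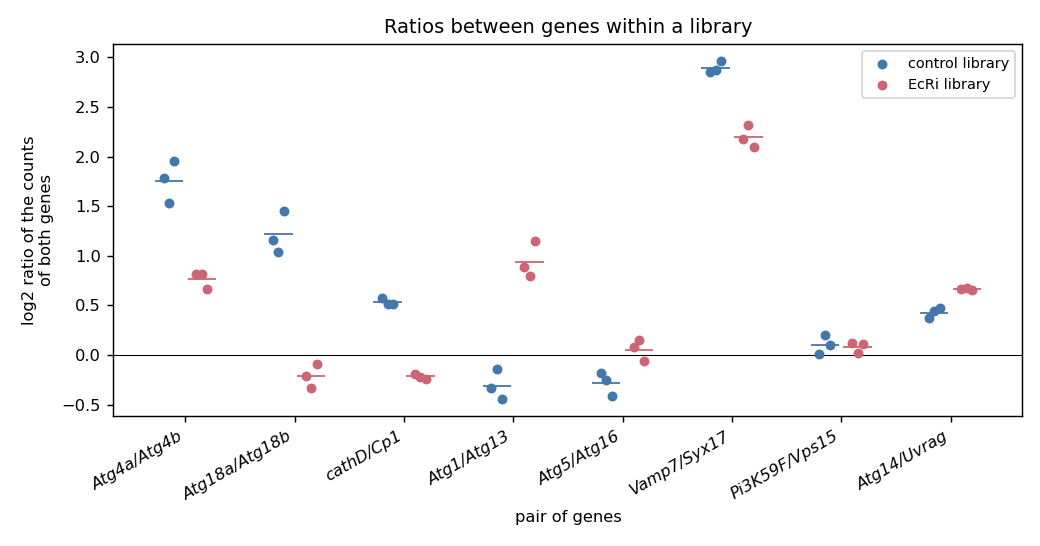
Log2 ratio of the raw counts of 2 genes in each library, for control (blue) and EcRi (red), with a line at the mean of 3 libraries. Atg18a/Atg18b, cathD/Cp1 and Atg1/Atg13 change sign between the genotypes in all libraries, and only Pi3K59F/Vps15 overlaps among the 8 pairs.

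Levels of different genes were compared as CPM per kilobase of exon. In the control, Lamp1 stood first at 565 ± 66.0 (SD, n = 3), followed by cathD at 355 ± 43.4. Atg8a at 212 ± 13.2, Cp1 at 211 ± 20.5 and ref(2)P at 211 ± 9.81 CPM per kb came next and did not differ beyond their spread. Rab7 at 103 ± 7.98, Vamp7 at 75.1 ± 5.37 and Atg3 at 59.7 ± 4.84 CPM per kb followed, and the other 24 genes were below 24 CPM per kb. In EcRi, Cp1 at 689.7 ± 77.8 and cathD at 688 ± 80.6 CPM per kb (SD, n = 3 each) were not separable and stood above Lamp1 at 496 ± 32.2 CPM per kb. The lowest genes were the same in both genotypes, with Atg8b last, then Atg10 at 1.2 ± 0.0837 and 0.769 ± 0.0669, Atg7 at 2.69 ± 0.460 and 3.70 ± 0.265 and Uvrag at 5.72 ± 0.107 and 7.22 ± 0.414 CPM per kb in control and EcRi. In the order of mean levels, Atg18b went from place 24 to place 10 and Atg1 from place 28 to place 16, and Mitf went the other way, from place 11 to place 22.

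**Figure D4:**
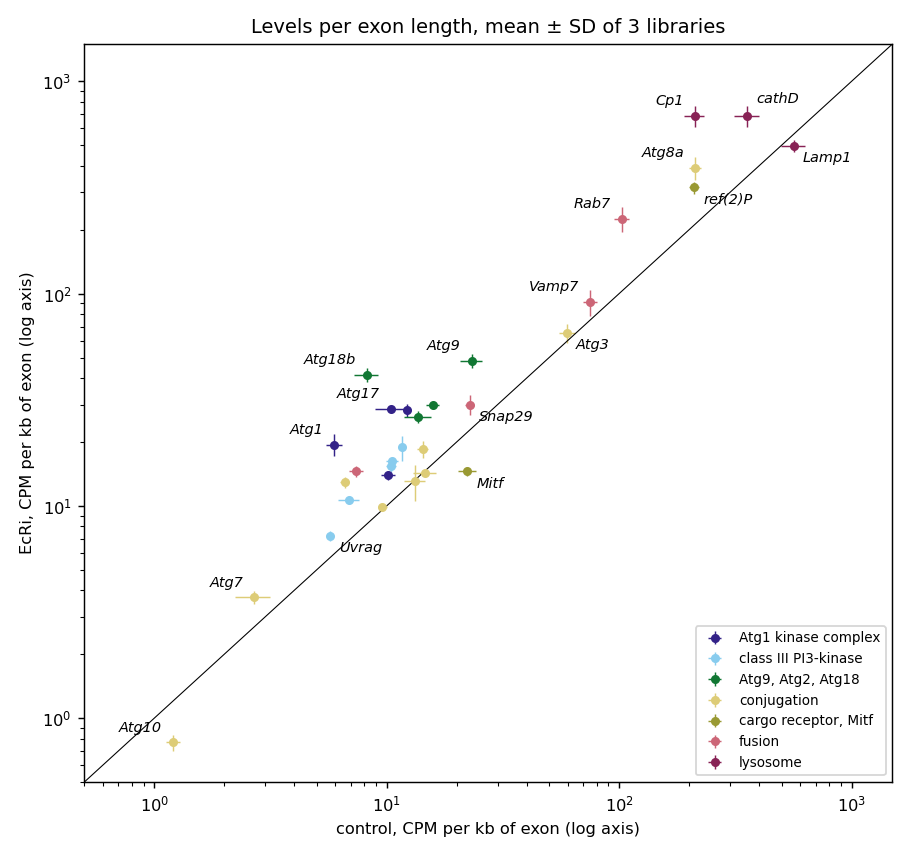
Mean CPM per kb of exon in the control (x) and in EcRi (y), both on log axes, with bars for the SD of 3 libraries, a colour for each role and a line of equal levels. Atg8b is left out because of its count of 0. Cp1 and cathD lie above the line at the top of the range, Lamp1 lies near the line, and Mitf and Atg10 lie below it.

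Other genes of the pathway and of the lysosome were followed in the same fit, from lists written by role. Over all 6 lists, 47 of 49 genes were matched and 45 tested. Of the 45, 14 were higher and 17 lower with TMM, against 30.1% and 29.3% of all tested entries. The median of the 45 lay at -0.062 on the log2 scale. With library totals 31 of the 45 were higher and 8 lower, against 57.3% and 12.7% of all tested entries. The counts of each list, here and in the next paragraph, stand against these same shares. In the HOPS complex, which tethers autophagosomes to lysosomes, 1 of 6 tested genes were higher and 2 lower with TMM, and 6 were higher and 0 lower with library totals. The largest changes there with TMM were small, with 0.25 for dor (standard error 0.071) and -0.31 for Vps16A (standard error 0.081), and with library totals both Vps16A and Vps11 were higher, at 0.34 and 0.41. The call of dor was lost without control replicate 1 or control replicate 2. Among other trafficking factors, 5 of 9 tested genes were higher and 1 lower with TMM, and 8 were higher and 0 lower with library totals. Lerp, the receptor that sorts lysosomal enzymes, had 722, 520.0 and 698 CPM in the 3 control libraries against 1165, 1281 and 1046 CPM in EcRi (log2 fold change 0.85, standard error 0.16, adjusted p = 0.00261). Trpml, a cation channel of the lysosome, had 19.9, 16.1 and 20.2 CPM in the control against 11.0, 11.9 and 8.06 CPM in EcRi (log2 fold change -0.86, standard error 0.16, adjusted p = 0.00265), and with library totals it was at -0.21. Among other regulators, 2 of 10 tested genes were higher and 3 lower with TMM, and 7 were higher and 0 lower with library totals. The rise of bchs, a large BEACH-domain protein that clears protein aggregates, from 23.6, 20.6 and 19.8 to 62.5, 57.1 and 85.1 CPM was the largest of that list (log2 fold change 1.68, standard error 0.16, adjusted p = 9.1e-05). Its largest fall was that of Keap1, from 30.8 ± 1.72 to 19.0 ± 2.74 CPM (SD, n = 3 each, log2 fold change -0.70, standard error 0.12, adjusted p = 0.00146), which with library totals was -0.043. Vmp1, lower with TMM at -0.23, was higher with library totals at 0.42. The calls of Vps11, Ykt6, Arl8, Vmp1, DOR and Ppt1 in these lists were each lost without 1 or more of the libraries.

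Lysosomal enzymes did not move as a block. Among the other cathepsins, 2 of 4 tested genes were higher and 1 lower with TMM, and 3 were higher and 0 lower with library totals. CtsF, a cathepsin F, had 397, 317 and 325 CPM in the 3 control libraries against 1144, 1315 and 996 CPM in EcRi (log2 fold change 1.73, standard error 0.15, adjusted p = 5.66e-05), a rise about as large as that of Cp1. The cathepsin 26-29-p fell from 448 ± 46.7 to 279 ± 13.7 CPM (SD, n = 3 each, log2 fold change -0.68, standard error 0.11, adjusted p = 0.00129), and with library totals its log2 fold change was -0.023. CtsB, a cathepsin B and the most abundant of them, had 1488 ± 140.4 CPM in the control against 1529.7 ± 153 CPM in EcRi and did not pass the test (adjusted p = 0.824). Among the other hydrolases, which act on sugars and lipids, 2 of 13 tested genes were higher and 10 lower with TMM, and 4 were higher and 8 lower with library totals. All 6 LMan genes, which are annotated as lysosomal alpha-mannosidases, were among the lower ones, though LManIII did not pass without any 1 library other than EcRi replicate 3, and LManIV did not without control replicate 1, control replicate 2 or EcRi replicate 1. LManV had 4743, 2910.3 and 3204 CPM in the control against 66.2, 34.6 and 158 CPM in EcRi (log2 fold change -5.39, standard error 0.67, adjusted p = 0.000814). With a library left out, the log2 fold change of LManV lay between -6.16 without EcRi replicate 3 and -5.01 without EcRi replicate 2. LManVI had 7452, 4512 and 4403 CPM in the control against 258, 128 and 442 CPM in EcRi (log2 fold change -4.30, standard error 0.53, adjusted p = 0.000615). Both groups were far apart in every library, and library totals kept the direction, with -4.73 and -3.65. Reads shared between such paralogs were not separated here. In the other direction, Gba1a, a glucocerebrosidase, rose from 83.0, 135 and 59.5 CPM in the control to 492, 529.8 and 379 CPM in EcRi (log2 fold change 2.33, standard error 0.32, adjusted p = 0.000935).

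**Figure D5:**
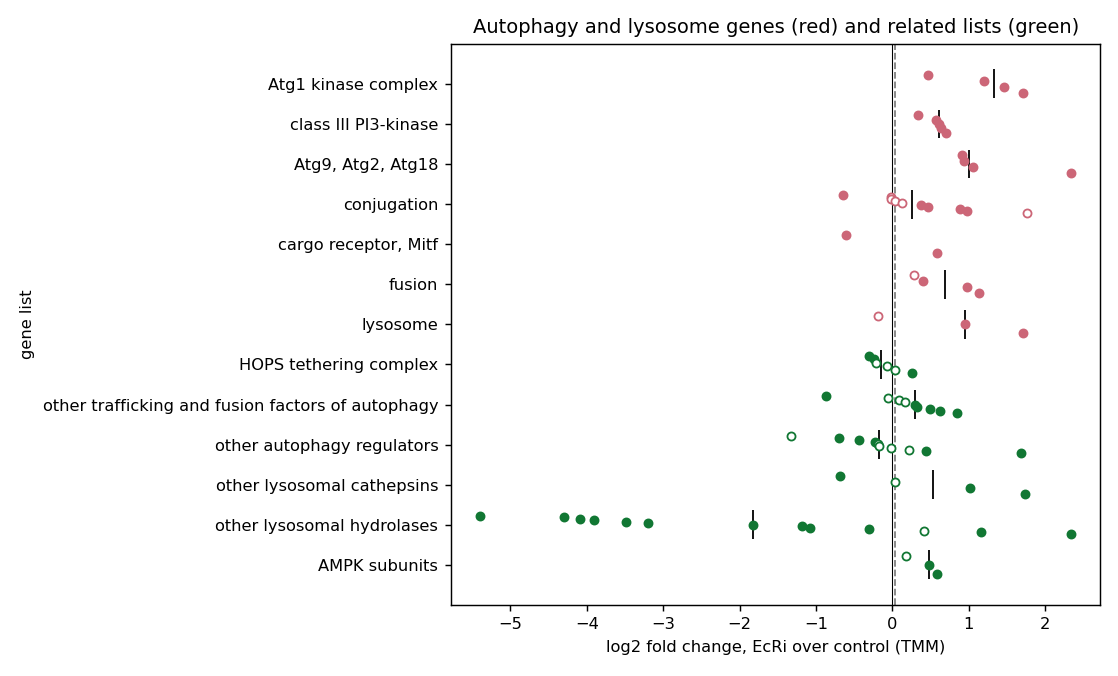
Log2 fold change (TMM) of each gene, EcRi over control, by list, for the 32 genes (red) and the related lists (green), with filled circles for an adjusted p below 0.05 and a line at the median of lists with at least 3 genes. Initiation and membrane supply lie right of the dashed median of all tested entries, whereas the hydrolases spread from -5.39 for LManV to 2.33 for Gba1a. With a library left out, the log2 fold change of LManV lay between -6.16 and -5.01.

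The 3 libraries of a genotype are named as biological replicates in the labels, and no source used here says how many larvae each held. The test then measures the spread between these libraries, and 7250 of 12193 entries passed it, so a call alone does not set a gene of this list apart.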

How the data were processed

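RNA from whole intestines was sequenced by the authors, who trimmed adaptors with Trim Galore!, aligned reads to dm6 (HISAT2) and assigned them to genes (featureCounts) on Galaxy, with versions, strand setting and the treatment of shared reads not given in the sources used here. The deposited counts are raw and have 1 column per library. Symbols were matched through the Ensembl annotation of BDGP6 and, for synonyms, RefSeq. Here entries were filtered with filterByExpr, scaled with TMM and tested with the robust quasi-likelihood test of edgeR 4.0.16 in R 4.3.3, and the standard error was taken as the log2 fold change divided by the square root of F. Log2 CPM used a prior count of 2. Exon length is the union of annotated exons, and levels in CPM carry the SD over 3 libraries. Alternatives were DESeq2 1.42.0, limma-voom (limma 3.58.1, the method of the paper), other scalings and filters, replicate number as a covariate, an adjusted p below 0.01 and leaving out each library. The fit was tested on simulated data. Replicates of a genotype differed by more than sampling noise. The genes and lists were chosen with earlier results of these data known. All 32 genes are named, and of each related list the largest rise and the largest fall among genes with an adjusted p below 0.05, a mean of at least 10 CPM in 1 genotype and no overlap. CtsB, LManVI, SNF4Agamma and alc were named after their values were seen. So were Vps11, Vmp1, Ykt6, Arl8, DOR, Ppt1, LManIII and LManIV, whose calls were lost with a library left out.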

Additional observations from a re-analysis of the deposited data

How the results depend on the processing

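Between 22 and 24 genes were higher and 2 were lower with each library left out in turn, and the counts were 23 and 2 with DESeq2 and with RLE factors and 24 and 2 with limma-voom. The gene added with limma-voom was Atg8b. With an adjusted p below 0.01, 21 were higher and 2 lower. Same-numbered libraries did not deviate together (correlations between -0.059 and 0.037), so the numbers do not pair them, and with replicate number as a block 23 were higher and 2 lower. The scaling mattered most. With library totals 30 were higher and 0 lower, and with totals without the 100 most abundant entries, chosen after seeing the data, 28 were higher and 0 lower. The medians of initiation, conjugation, fusion and protease genes were then 1.29, 0.90, 1.34 and 1.98 with totals and 0.99, 0.61, 1.05 and 1.68 with the trimmed totals, as the median of all entries moved to 0.68 and 0.39. The initiation median was 0.69 with at least 10 counts in every library and lay between 0.56 and 0.68 with a library left out. Signs changed with totals for Atg4a (0.63), Atg12 (0.64), Atg10 (0.0016), Mitf (0.038) and Lamp1 (0.46), and with the trimmed totals for Atg4a (0.33), Atg12 (0.34) and Lamp1 (0.17), while Mitf and Atg10 no longer passed there. Near 0, Atg4a was 0.0301 and Atg12 0.038 with at least 10 counts in every library, and Atg12 was 0.0071 without a filter. With a library left out, Atg4a lay between -0.13 and 0.043, Atg12 between -0.13 and 0.14 and Atg16 between -0.0085 and 0.078. Of 479 comparisons of single genes, 443 kept direction and side of the threshold, 12 newly passed, 8 no longer passed and 16 changed sign. The 7 ratios without overlap stayed 7 with a library left out, with 0.5 added to each count and with same-numbered libraries compared. With a library left out or same-numbered libraries compared, a pair without overlap must keep its direction, so the count could not fall. Adding 0.5 is little beside the counts of these genes. These settings therefore do not test the ratios. Depth limits Atg8b, whose counts ran from 0 to 36.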

Other observations

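AMPK, the kinase whose activity in wing discs the study followed, phosphorylates the Atg1 orthologue ULK1 in mammals, and its subunits were followed in the intestine as a list of 3 genes. AMPKalpha, the catalytic subunit, had 152, 166 and 164 CPM in the 3 control libraries against 250.4, 262 and 214 CPM in EcRi (log2 fold change 0.59, standard error 0.11, adjusted p = 0.00215). SNF4Agamma, the subunit that binds AMP, had 174, 156 and 172 CPM in the control against 227, 222 and 252 CPM in EcRi (log2 fold change 0.48, standard error 0.098, adjusted p = 0.00378). Both rose without overlap between the genotypes. Of all tested entries, 34.9% lay higher without overlap and 30.1% were called higher. The beta subunit alc had 84.5, 86.2 and 101 CPM in the control against 104, 109 and 95.0 CPM in EcRi and did not pass the test (adjusted p = 0.17). With library totals all 3 were called higher, alc at a log2 fold change of 0.84, where 57.3% of all tested entries were higher. These are transcript levels of the whole intestine and say nothing of the activity of the kinase.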
